A study of Chromochloris zofingiensis with 38 samples.

Results

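Of the 12459 genes in the deposited table, 81 met a rule for transcripts that stood higher in Glu than in None and higher in GA than in AZD at both 1 h and 24 h, and that differed little between AZD and S at 1 h. The genes were chosen by their measured CPM in those comparisons. Wild-type Chromochloris zofingiensis, a single-celled green alga, was collected as cell pellets 1 h or 24 h into 1 of 5 labelled treatments. The study compared glucose addition (Glu) and treatment with AZD to inhibit TOR (target of rapamycin). The labels give None, S and GA with no further words, so what S and GA received is not stated, and all groups are called by their labels. At 1 h there were 4 libraries each of None, S, Glu and GA and 3 of AZD, and at 24 h 4 each of None, S, Glu and AZD and 3 of GA, where the GA libraries are numbered 1, 3 and 4, which gave 38 libraries in 10 groups. Whether replicates were grown separately is not stated, so the spread behind every p-value could be technical. All groups shared the wild-type genotype. The sample titles also carry a different prefix at each time, and the effects of time and of whatever the prefix marks cannot be told apart. Levels at 1 h and 24 h were therefore not tested against each other. A lower level in a culture can come from fewer cells with the transcript or from less of it per cell, which cannot be told apart in bulk RNA.

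TOR is a protein kinase conserved from yeast to plants and animals. When nutrients are plentiful it promotes protein synthesis and growth and holds back autophagy, the cell's recycling of its own contents. Sugar is one of the signals that act through it in land plants. C. zofingiensis is known for taking up glucose, for shutting down photosynthesis when glucose is supplied, and for storing lipid and the red ketocarotenoid astaxanthin under that condition. The gene IDs come with no names or products here, so the 81 genes are described by ID and no role is given to any of them.

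The rule worked on CPM, counts scaled to the same column total in every library, averaged by group. For a pair of groups, L is the log2 ratio of the mean CPM values after adding a pseudocount of 1, less the median of that ratio over the 11623 genes with a mean CPM of at least 1. A gene was kept when L of Glu over None and L of GA over AZD were at least 1 at both times and L of AZD over S at 1 h lay between -1 and 1. At least 1 was reached by 460 genes in Glu over None at 1 h, 1566 in Glu over None at 24 h, 591 in GA over AZD at 1 h and 819 in GA over AZD at 24 h. All 4 limits were met by 106 genes, of which the AZD limit removed 15 on the upper and 10 on the lower side. These values chose the genes and are given as description, with no test.

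The median L over the 81 genes was 1.43 for Glu over None at 1 h, 2.14 for the same pair at 24 h, 1.28 for GA over AZD at 1 h and 1.98 for GA over AZD at 24 h. L reached 2 or more in 5, 49, 3 and 40 of the genes in that order. In 64 of 81 genes L of Glu over None was larger at 24 h than at 1 h, and in 67 of 81 that of GA over AZD was. Over the whole table, too, more genes reached the limit at 24 h than at 1 h (1566 against 460, and 819 against 591). Time cannot be told apart from the title prefix here. Across the 81 genes L of Glu over None and of GA over AZD, which share no library, had a Pearson r of 0.73 at 1 h and 0.40 at 24 h. The limits of the rule truncate both values, and genes are not replicates. At 1 h Cz01g21060 (4.4 and 2.6) and Cz03g34210 (3.3 and 2.9) lay far above the other members, and r without them was not computed.

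**Figure D1:**
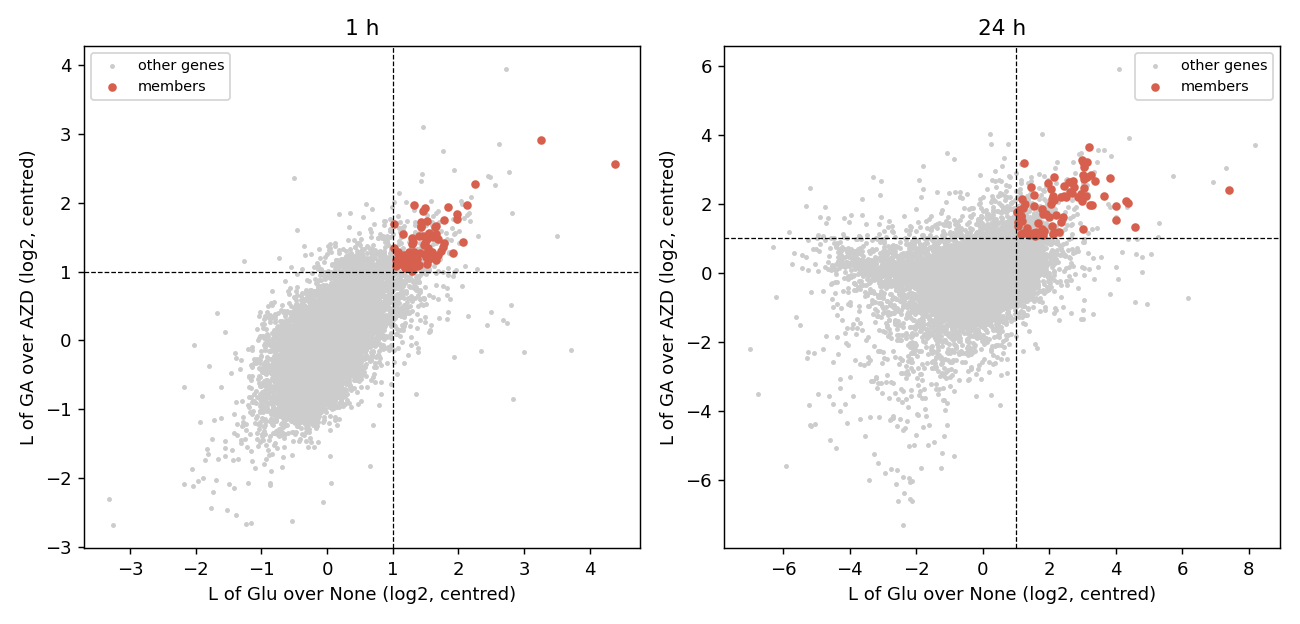
L of Glu over None (x axis, log2) against L of GA over AZD (y axis, log2) for every gene, at 1 h and at 24 h, with the 81 members in red and the limits of 1 dashed. The members fill the upper right corner by choice, most of them near the limits at 1 h and spread farther out at 24 h, where the highest L of Glu over None is 7.42 in Cz13g05140.

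Many members lay close to the limits. The smallest of the 4 values of L was 1.005 in Cz04g05080, 1.01 in Cz01g09160 and 1.02 in Cz03g28280, just inside. It was 0.99 in Cz01g39080, 0.98 in Cz08g06020 and 0.98 in Cz05g36260, which were just outside. For L of AZD over S at 1 h, Cz01g09160 at -0.93 and Cz09g21240 at 0.91 were the nearest inside, and Cz10g21220 at -1.03 and Cz16g11160 at 1.04 the nearest outside. In 17 of the 81 genes the smallest L was below 1.1. Without the median subtraction the rule kept 22 genes, 19 of them among the 81. The choice therefore rests on measuring each change relative to the middle of the expressed genes.

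Library totals ran from 12414643 to 106150532 counts. Differences were tested with edgeR on counts scaled by TMM factors (the trimmed mean of M-values, which centres the changes on the bulk of the genes), over 12142 genes that included all 81. Levels below are CPM on these scaled libraries, fold changes carry an approximate standard error (SE), and a gene is called at a Benjamini-Hochberg adjusted p under 0.05. The farthest libraries from the rest of their groups were S replicate 1 and Glu replicate 4, both at 1 h, with a root mean square log2 distance of 0.75 and 0.70 over all genes. Over the 81 genes these distances were 0.58 and 0.73, and None replicate 2 at 24 h was at 0.62. Several counts that rest on them, and the values of some single genes, are given with and without them.

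The 81 genes together took a share of the counts that separated Glu and GA from the other groups at 1 h, and all 3 treatments from None and S at 24 h. At 1 h they held 2.90% ± 0.119 of the counts in None (SD, n = 4), 3.22% ± 0.196 in S (n = 4), 2.83% ± 0.181 in AZD (n = 3), 6.51% ± 0.887 in Glu (n = 4) and 5.87% ± 0.531 in GA (n = 4). Glu replicate 4 stood at 7.83%, above the 5.98 to 6.22% of the other Glu libraries at 1 h. At 24 h the share was 0.743% ± 0.0183 in None, 0.703% ± 0.0188 in S, 3.44% ± 0.314 in AZD and 4.91% ± 0.226 in Glu (n = 4 each), and 13.3% ± 1.22 in GA (n = 3). The lowest AZD library at 24 h held 2.98% and the highest S library 0.727%, and the lowest GA library 11.98% against the highest Glu library at 5.23%. Cz05g12170 alone made up part of this, and without it, a step chosen after its values were seen, GA at 24 h held 9.34% ± 0.286 and AZD 2.34% ± 0.320. The higher share in Glu and GA follows from the choice of genes, while AZD against S and GA against Glu at 24 h were not part of the rule. The AZD, Glu and GA libraries at 24 h did enter it.

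**Figure D2:**
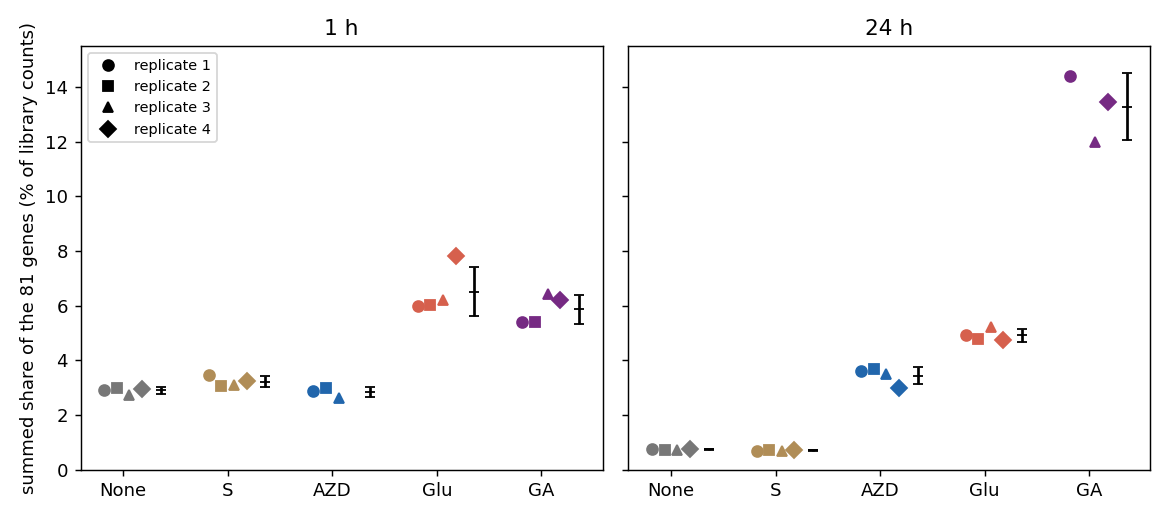
Summed share of the 81 genes in each library (y axis, % of the library's counts) by treatment (x axis) at 1 h and 24 h, with a symbol per replicate and the mean ± SD beside each group. At 24 h the AZD libraries (2.98 to 3.67%) lie clear of None and S (0.682 to 0.768%), and the GA libraries (11.98 to 14.4%) lie above all others.

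Nearly all of the 81 genes were higher in AZD than in S at 24 h, so they are called here by their rule and not as genes independent of TOR. Against S, 76 rose, 1 fell and 4 were not called, while 34% of all genes tested rose and 38.7% fell in the same contrast. Of the 76, 64 were at least 2-fold and 26 at least 4-fold higher, sizes that were not counted over all genes. The median log2 fold change was 1.60 over the 81 genes and -0.07 over all genes tested. A further 161 genes reached the limit in Glu over None at both times but not in GA over AZD at both. Of these 76.4% rose and 15 genes fell in AZD against S at 24 h, with a median of 1.51. The rise in AZD was thus not particular to the 81 genes. In 74 of 81 genes every AZD library lay above every S library, as in 31.3% of all genes, and in 0 below, as in 35.8%. The AZD libraries at 24 h entered the rule as the lower term of GA over AZD, and the S libraries at 24 h were not used by it. Against None in place of S, 73 of 81 rose and 0 fell (35.2 and 38.2% of all genes), with a median log2 fold change of 1.68. None at 24 h was itself the lower term of Glu over None in the rule, so the genes were chosen in part for low None libraries. The counts against None are therefore a description. At 1 h, where the rule held AZD near S, 21 members passed upward and 9 downward beside 28.4 and 25.5% of all genes, from which nothing is read. Those counts were 12 and 39 with library totals alone, beside 1673 and 4524 of 12142 genes. Without S replicate 1 at 1 h 14 members passed downward.

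Cz05g12170, which had the largest rise in AZD against S at 24 h and also the highest mean CPM of the 81, stood at 285, 209, 94.5 and 121 CPM in the S libraries and at 8413, 12210, 8261 and 9622 CPM in AZD. Every AZD library was far above every S library. The log2 fold change was 5.76 ± 0.32 (SE), 54.3-fold (edgeR, adjusted p = 1.90e-17, 4 libraries against 4). In Cz01g21060 the S libraries held 2.80, 1.41, 2.69 and 0.709 CPM and the AZD libraries 42.5, 41.4, 36.9 and 35.3 CPM, again without overlap, a log2 difference of 4.37 ± 0.44 (edgeR, adjusted p = 1.01e-10). Cz03g34210 was at 1.94, 2.39, 1.95 and 1.74 CPM in S and 38.1, 35.9, 39.9 and 31.1 CPM in AZD, 18.1-fold higher (log2 4.18 ± 0.20, edgeR adjusted p = 2.73e-19). These were the 3 largest rises whose libraries did not overlap, and none of the members fell without overlap.

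The exceptions to the rise in AZD were Cz07g17060, Cz08g10110, Cz05g02030, Cz10g21160 and Cz09g27290, named after their values were seen. Cz07g17060 was the gene that fell, from 34.4, 29.1, 22.8 and 21.9 CPM in S to 17.3, 23.9, 14.4 and 17.9 CPM in AZD, with overlapping libraries (log2 -0.56 ± 0.21, edgeR adjusted p = 0.019), and it was not called with DESeq2 size factors. Cz08g10110 stood at 87.6, 88.0, 64.3 and 73.8 CPM in S and 78.7, 74.1, 76.3 and 73.1 CPM in AZD, a log2 difference of -0.05 ± 0.16. The difference was 0.03 ± 0.17 in Cz05g02030, 0.10 ± 0.12 in Cz10g21160 and 0.35 ± 0.16 in Cz09g27290 on the same log2 scale, and none of these 4 passed the test (edgeR, adjusted p from 0.0505 to 0.879).

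GA stood above Glu at 24 h in most of the 81 genes. Here 72 rose, 2 fell and 7 were not called, beside 40.8% of all genes rising and 35.6% falling. Of the 72, 62 were at least 2-fold and 12 at least 4-fold higher, which was not counted over all genes. The median log2 fold change was 1.49 over the 81 genes and 0.12 over all genes tested. In 72 of 81 genes every GA library exceeded every Glu library, as in 41.7% of all genes, and in 4 the reverse held, as in 35.7%. Both groups were raised terms of the rule, and their difference was not part of it. The rule did require GA to exceed AZD at 24 h, and AZD was itself above S in most members. The genes were thus chosen in part for high GA libraries. Of the 161 genes described above, 56.5% rose and 44 genes fell in this contrast, with a median log2 fold change of 0.60. The member counts in GA against Glu are therefore a description. By group means, GA was the highest of the 5 treatments at 24 h in 77 genes and Glu in 4, beside 25.2 and 24.5% of all genes tested. The order GA, Glu, AZD and then the controls held in 59 genes, and GA, AZD, Glu and then the controls in 17, beside 3.67 and 8.7% of all genes. The rule fixed part of these orders, since it placed GA above AZD and Glu above None. Of the 81, 69 rose both in AZD against S and in GA against Glu at 24 h, comparisons that share no library, and 26.4% of all genes tested did. Across the 81 genes the log2 fold changes of these comparisons had a Pearson r of 0.26, and 0.64 across all 12142 genes, as a description over genes that share their libraries. The 81 include Cz13g05140, far from the rest at 3.13 and -4.84, whose AZD against S value rests on 36 and 4 summed counts. Most of the others rose in both, which narrows their range, so the values of r are not compared.

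**Figure D3:**
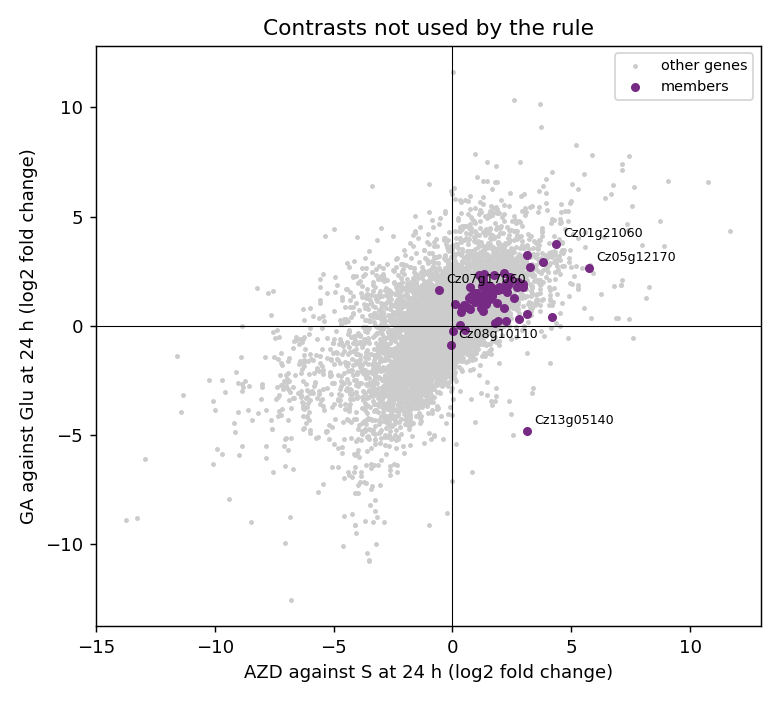
Log2 fold change of AZD against S (x axis) and of GA against Glu (y axis) at 24 h, with all genes tested in grey and the 81 members in purple. Most members lie in the upper right, where 69 were called in both contrasts, while Cz13g05140 lies far below (-4.84 in GA against Glu) and Cz07g17060 is the only member called lower in AZD against S.

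Cz01g21060 showed the largest excess of GA over Glu at 24 h. Its Glu libraries held 16.3, 11.7, 13.5 and 14.3 CPM and its GA libraries 205, 154 and 202 CPM, so the groups lay far apart. The fold was 13.5 (log2 3.75 ± 0.41, edgeR adjusted p = 7.84e-10, 3 libraries against 4). AZD, at 39.0 ± 3.46 CPM (n = 4), was above Glu at 13.9 ± 1.91 CPM (n = 4) in this gene. Cz03g06120 rose from 108, 87.9, 85.0 and 89.6 CPM in Glu to 896, 933 and 824 CPM in GA, 9.55-fold (log2 3.26 ± 0.18, edgeR adjusted p = 2.21e-17). Cz10g18120 was at 296, 303, 348 and 351 CPM in Glu and 2568, 2450 and 2426 CPM in GA, 7.65-fold higher (log2 2.94 ± 0.19, edgeR adjusted p = 1.90e-15). By group means, a comparison that was not tested, AZD was also above Glu at 24 h in these genes, at 239 ± 51.4 against 92.6 ± 10.3 CPM and at 569.8 ± 134 against 324 ± 29.0 CPM. In all, the mean of AZD exceeded that of Glu in 17 of the 81 genes at 24 h, beside 52.4% of all genes tested. Glu was chosen to be high in these genes.

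Cz13g05140 had the largest fall in GA against Glu at 24 h. Its level was 1966, 1966, 2006 and 2003 CPM in None, 8804, 8256, 7895 and 14860 CPM in Glu, 2097, 2109 and 1782 CPM in AZD and 10360, 10460, 10790 and 9207 CPM in GA at 1 h. At 24 h the Glu libraries held 159.5, 142, 157 and 176 CPM and GA only 3.32, 7.46 and 5.86 CPM, while None, S and AZD were all below 1 CPM. GA was thus 28.6-fold lower than Glu (log2 -4.84 ± 0.35, edgeR adjusted p = 2.31e-14). The 24 h folds of this gene rest on few counts in the low groups, 10 in None, 4 in S and 36 in AZD summed over 4 libraries each. From summed counts Glu was 1640-fold above None (95% interval 891 to 3419), GA 18.1-fold above AZD (12.9 to 26.0) and AZD 9.25-fold above S (3.31 to 35.8), with intervals that cover counting error only.

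Cz08g10110 was the other gene called lower in GA than in Glu at 24 h, while Cz12g02030 and Cz05g02030, named after their values were seen, were lower without overlap and were not called. Its Glu libraries stood at 409.5, 407, 549 and 441 CPM and its GA libraries at 263, 198 and 274 CPM, 1.84-fold lower without overlap (log2 -0.88 ± 0.17, edgeR adjusted p = 2.90e-05). At 1 h the same gene was higher in GA, at 2237, 2337, 2160 and 1988 CPM against 1100, 1306, 1144 and 1328 CPM in Glu (log2 0.84 ± 0.16, edgeR adjusted p = 2.98e-05). The genes not called in GA against Glu at 24 h included Cz05g34160 and Cz06g01110, which are among the 4 members with the highest mean CPM. Cz05g34160 stood at 4206, 4845, 6072 and 4676 CPM in Glu and 6435, 5128 and 6914 CPM in GA (log2 0.32 ± 0.20), and Cz06g01110 at 650.2, 808, 899 and 824 and 921, 809.6 and 883 CPM (log2 0.13 ± 0.18). The libraries of the 2 groups overlapped in both.

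**Figure D4:**
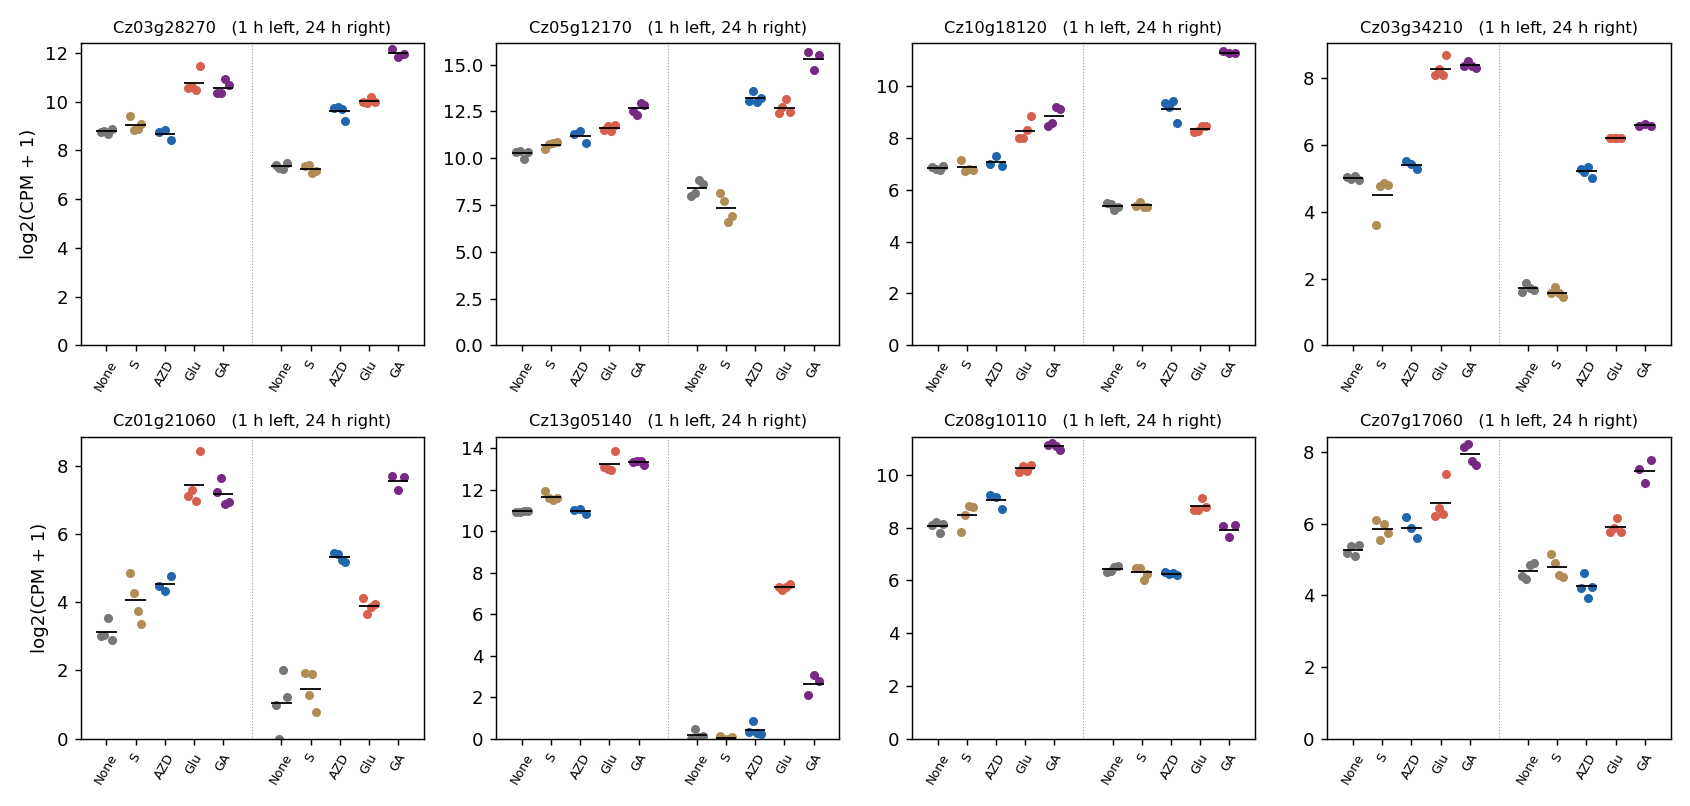
Level of 8 members in every library, as log2(CPM + 1), by treatment at 1 h (left of the dotted line) and 24 h (right), with a bar at each group mean. In Cz03g28270, Cz05g12170, Cz10g18120 and Cz01g21060 the GA libraries lie above all other libraries at 24 h, in Cz13g05140 and Cz08g10110 they lie below Glu, and in Cz07g17060 AZD at 24 h overlaps S.

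At 1 h GA and Glu differed in fewer members and in both directions. Of the 81 genes 24 rose and 8 fell in GA against Glu, beside 31.6% of all genes tested rising and 26.7% falling, with a median log2 fold change of 0.12 over the members and 0.10 over all genes. Every GA library lay above every Glu library in 16 members and below in 5, as in 25.6 and 21.6% of all genes. These counts depended on single libraries and on scaling. Without Glu replicate 4 at 1 h 39 rose and 4 fell, and without GA replicate 3 at 1 h 14 rose and 14 fell. Shares of all genes in these fits are not given here. Without Glu replicate 4 and S replicate 1 together 41 rose and 4 fell, beside 4100 and 3235 of 12125 genes. In a fit of these 2 groups alone 15 members rose, beside 2731 of 11801 genes. With library totals alone 6 members rose and 45 fell, beside 1508 and 5694 of 12142 genes. The median of all genes then moved from 0.10 to -0.40. Which direction prevailed at 1 h is therefore not settled. The difference between GA and Glu was itself more positive at 24 h than at 1 h in 66 members and more negative in 3 (Cz13g05140, Cz08g10110 and Cz05g02030), beside 36.1 and 29.7% of all genes, in a contrast added after the values were seen.

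The largest differences at 1 h whose libraries did not overlap were modest. Cz07g17060 stood at 73.2, 86.1, 76.4 and 166 CPM in Glu and 281, 298, 214 and 200 CPM in GA, 2.47-fold higher (log2 1.30 ± 0.21, edgeR adjusted p = 2.66e-06, 4 libraries against 4). Cz05g12170 was at 2948, 3332, 2851 and 3483 CPM in Glu and 5785, 5129, 8059 and 7293 CPM in GA (log2 1.06 ± 0.26, edgeR adjusted p = 7.51e-04), and Cz02g27090 differed by 0.94 ± 0.17 on the log2 scale (edgeR, adjusted p = 1.06e-05). Leaving out single libraries gave log2 differences of 1.08 to 1.66 in Cz07g17060, 0.82 to 1.11 in Cz05g12170 and 0.785 to 1.055 in Cz02g27090. Among those that fell, Cz15g09100 went from 398, 413, 348 and 738 CPM in Glu to 266, 283, 302 and 276 CPM in GA (log2 -0.75 ± 0.16, edgeR adjusted p = 1.12e-04), with the highest Glu value in replicate 4. Without that library the log2 difference of Cz15g09100 was -0.45 (edgeR, adjusted p = 0.00228). Cz04g11130 fell too (log2 -0.60 ± 0.17, edgeR adjusted p = 0.00335), which became -0.32 and did not pass without Glu replicate 4 at 1 h (edgeR, adjusted p = 0.0694). UNPLg00169 fell as well (log2 -0.44 ± 0.13, edgeR adjusted p = 0.00387). At 24 h Cz15g09100 and Cz04g11130 were higher in GA than in Glu, with log2 differences of 1.27 ± 0.17 (edgeR, adjusted p = 3.01e-08) and 1.83 ± 0.19 (edgeR, adjusted p = 1.16e-10).

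**Figure D5:**
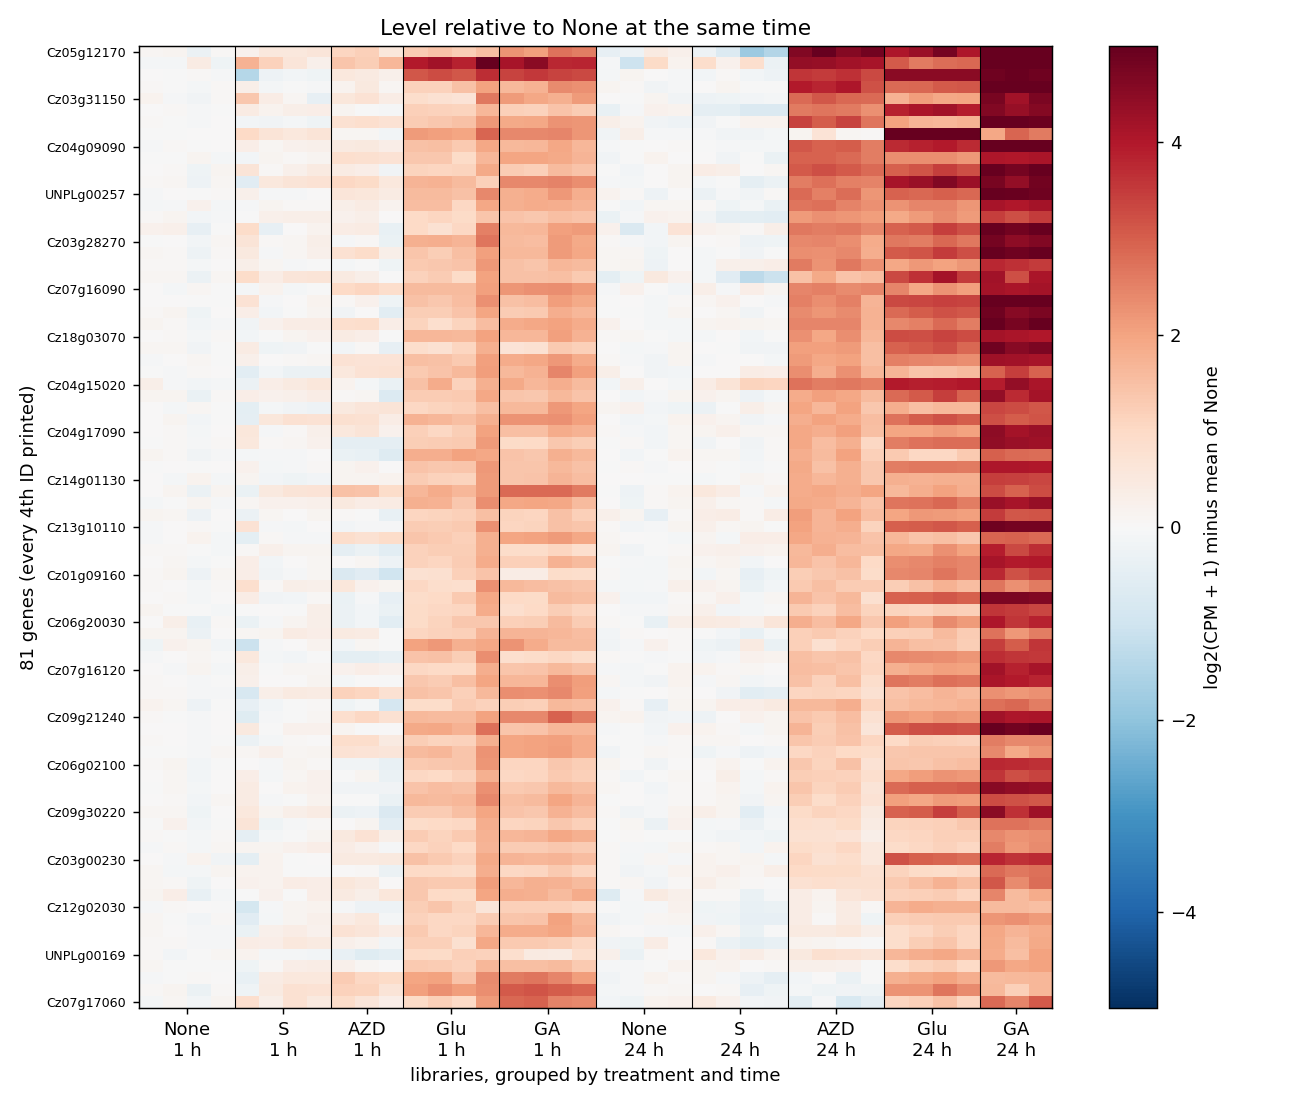
Level of the 81 genes in all 38 libraries as log2(CPM + 1) less the mean of None at the same time (red higher, blue lower, clipped at 5 in either direction), with genes ordered from top to bottom by falling log2 fold change of AZD against S at 24 h. S stays near None in most rows, AZD is near None at 1 h and higher in most rows at 24 h, Glu and GA are higher at both times, and the 4th Glu column at 1 h is the darkest of its group in most rows.

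The values that chose the genes varied widely among the genes that met the rule. By the smallest of the 4 values of L, the strongest were Cz13g05140 (2.26), Cz01g21060 (2.18), Cz03g28270 (1.84), Cz11g29030 (1.74), Cz02g14160 (1.66) and Cz09g21240 (1.65). Cz03g28270 stood at 436, 449.5, 404 and 475 CPM in None and 1511, 1543, 1421 and 2790 CPM in Glu at 1 h, and at 427, 463 and 347 CPM in AZD and 1320, 1296, 1946 and 1640 CPM in GA. At 24 h it was at 169, 155, 148 and 180.5 CPM in None, 1011, 974, 1181 and 1011 CPM in Glu, 856, 889, 822 and 598 CPM in AZD and 4525, 3614 and 4035 CPM in GA. In Glu and GA every library was above every library of its counterpart group, and GA at 24 h was the highest of all groups. Cz01g21060 had the steepest difference at 1 h, from 7.07, 7.15, 10.6 and 6.38 CPM in None to 136, 156, 124 and 343 CPM in Glu, and stood at 21.4, 19.1 and 26.2 CPM in AZD and 149.7, 199, 116 and 121 CPM in GA. Its L of Glu over None fell from 4.38 at 1 h to 2.86 at 24 h, and in Cz10g24130 L went from 1.84 to 1.21, the largest decreases among the members. The largest increases were in Cz13g05140, from 2.26 to 7.42, and in Cz05g12170, from 1.30 to 4.30.

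Cz05g34160 and Cz06g01110, with Cz05g12170 and Cz13g05140 the members with the highest mean CPM, were higher in every Glu library than in every None library at both times. In Cz05g34160 None held 233, 224, 243 and 268 CPM and Glu 4206, 4845, 6072 and 4676 CPM at 24 h, 20.4-fold higher (log2 4.35 ± 0.21). AZD was at 1422, 1649, 1377 and 1370 CPM and GA at 6435, 5128 and 6914 CPM at that time. In Cz06g01110 the 24 h values were 99.9, 90.5, 93.7 and 114 CPM in None, 650.2, 808, 899 and 824 CPM in Glu, 355, 398, 359.6 and 292 CPM in AZD and 921, 809.6 and 883 CPM in GA. GA and Glu were thus near each other in both genes, with AZD between them and None.

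With S in place of None at 24 h, libraries that the rule did not use, all 81 rose in Glu, beside 31.4% of all genes rising and 37.4% falling, with a median log2 fold change of 2.28. The Glu libraries in that comparison are the ones that chose the genes. Whether GA minus AZD and Glu minus None had the same size was also read from terms of the rule, so the following counts are a description. GA minus AZD was called larger than Glu minus None in 0 members and smaller in 1 (Cz01g21060) at 1 h, beside 2.4 and 2.1% of all genes, and in 12 and 24 members at 24 h, beside 27.4 and 25.5%. With DESeq2 size factors the 24 h counts were 8 and 29. The count of 12 became 7 without None replicate 1, None replicate 2 or AZD replicate 4 at 24 h, and the count of 1 ranged from 0 to 4 as single libraries at 1 h were left out. With Glu replicate 4 and S replicate 1 at 1 h left out, GA minus AZD was called larger in 2 members and smaller in 0 at 1 h. The call of Cz01g21060 was then lost, and the median difference over the members moved from -0.06 to 0.13.

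S and None were close in these genes. No member was called between them at 1 h, where DESeq2 called 1, and 3 were called without S replicate 1 and 4 without that library and Glu replicate 4. An unadjusted p under 0.05 was reached by 12 members at 1 h (edgeR), a share that was not counted over all genes. The differences at 1 h were small, and their side depended on the scaling. The log2 fold change of S against None was above 0 in 64 members and below in 17, with a median of 0.14 beside 0.005 over all genes. Over all genes 0.0577% rose and 0.00824% fell at 1 h. At 24 h Cz04g15020 rose and Cz04g29220 fell, beside 0.404 and 0.552% of all genes. Cz04g15020 stood at 2.64, 3.77, 3.11 and 2.73 CPM in None and 4.30, 5.24, 7.83 and 7.41 CPM in S (log2 1.04 ± 0.19, edgeR adjusted p = 0.00492), and Cz04g29220 at 171, 213, 258 and 252 and 159.8, 157, 133 and 135 CPM (log2 -0.62 ± 0.13, edgeR adjusted p = 0.0185). Neither pair of groups overlapped. The count of 2 at 24 h was 4 without None replicate 1 and 5 without S replicate 1. In a fit of S and None at 24 h alone neither was called (edgeR, adjusted p = 0.111 and 0.122), and Cz04g29220 was not called, leaving a count of 1, when None replicate 3, None replicate 4, S replicate 3 or S replicate 4 was left out.

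The members were spread over the ID prefixes. The numbered prefixes and the prefix UNPL of the table held between 0 (Cz17 and Cz19) and 9 members (Cz06), at most 1.104% of the genes of a prefix. In 3 cases the IDs of a pair of members followed each other in the table: Cz03g28270 with Cz03g28280, Cz06g20030 with Cz06g20040, and Cz13g05140 with Cz13g05150. These pairs were picked out after their values were seen. Whether these IDs are neighbours on a chromosome or similar in sequence was not checked, since no annotation was used here. The first pair rose in both contrasts at 24 h. The log2 differences were 2.38 ± 0.18 and 1.28 ± 0.16 in AZD against S. They were 1.96 ± 0.19 and 1.11 ± 0.17 in GA against Glu. Cz06g20030 and Cz06g20040 rose in both too, at 1.34 ± 0.18 and 2.04 ± 0.19 in AZD against S. In GA against Glu they were at 1.77 ± 0.18 and 1.68 ± 0.19. Since 69 of the members rose in both contrasts, these shared rises do not set the pairs apart. In GA against Glu at 1 h the signs differed within the first pair, at -0.23 ± 0.17 and 0.34 ± 0.16. They also differed between Cz06g20030 and Cz06g20040, at 0.13 ± 0.17 and -0.18 ± 0.18. None of these 1 h differences was called. The third pair parted in GA against Glu at 24 h. Cz13g05150 was then at 404 ± 21.4 CPM in Glu (n = 4) and 1295 ± 41.7 CPM in GA (n = 3). Its log2 difference was 1.68 ± 0.19 against -4.84 ± 0.35 in Cz13g05140 (edgeR, adjusted p = 1.99e-09 and 2.31e-14).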

How the data were processed

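RNA from cell pellets was sequenced as polyA-selected paired-end libraries after read trimming with BBDUK, per the labels' protocols. The deposited table holds estimated counts per gene for 38 libraries. Salmon and DESeq2 1.46.0 are listed, with no role, per the submitters' processing notes. Not given in the sources used here are the strand setting, the annotation and the genome build. The 81 genes, the comparisons and the lists were chosen with earlier results of these data known.

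From these counts CPM by column total gave the rule values. For tests, the estimated counts were rounded to whole numbers, filtered with filterByExpr, scaled by TMM factors and fitted over all 10 groups with edgeR 4.0.16 in R 4.3.3, using the quasi-likelihood test with Benjamini-Hochberg adjustment over 12142 genes, which held at least 99.9978% of each library's counts. The code of the fit was run on simulated counts with the same spread in all genes and few changed genes. That run does not bear on the scaling or on outlying libraries here. The SE of a log2 fold change was approximated as its size over the square root of the F statistic. Fold intervals from summed counts are exact binomial intervals at 95%.

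Genes were named by a rule: the 6 with the largest smallest L, the genes nearest each limit, the 4 with the highest mean CPM, at most 3 called in each direction without overlapping groups in GA against Glu and in AZD against S at 24 h, at most 2 called in each direction in S against None, and the 2 whose L of Glu over None grew or shrank most. No pathway list was counted, since the IDs carry no names. The comparison of GA minus Glu between the times was added after values were seen. Alternatives were other scalings, no filter, DESeq2 1.42.0, fits of the compared groups alone, a replicate block, leaving out libraries, and changes to the rule. No 2 replicate libraries agreed within sampling noise (chi-square per gene 7.39 to 410.3 over 54 pairs).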

Additional observations from a re-analysis of the deposited data

Results flagged for a closer look

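In groups of 4 libraries, 23 values stood apart from the other 3 of their group, of 200 groups of values looked at. Chance gives about 1 in 20 groups for independent, normally distributed values. These groups of values share libraries and are not independent, so the rate is only a rough guide. Of the 23 values, 12 were in Glu replicate 4 at 1 h, in each case as the highest. It held 7.83% of its counts in the 81 genes, against 5.98 to 6.22% in the other Glu libraries at 1 h. Its CPM was 14860 in Cz13g05140, 343 in Cz01g21060, 2790 in Cz03g28270, 450.4 in Cz11g29030, 1840 in Cz02g14160 and 1600 in Cz09g21240. It was 166 in Cz07g17060, 738 in Cz15g09100, 193 in Cz04g11130, 237 in Cz03g06120 and 2277 in Cz04g29220.

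S replicate 1 at 1 h was the highest of its group in Cz15g09100 at 213 CPM and in UNPLg00169 at 16.7 CPM, and the lowest in Cz03g34210 at 11.1 CPM. None replicate 3 at 1 h was the lowest in Cz05g12170 at 992 CPM, in Cz05g34160 at 2335 CPM and in Cz04g11130 at 27.1 CPM. None replicate 1 at 1 h was the highest in Cz04g15020 at 51.9 CPM, and GA replicate 4 at 1 h the lowest in Cz02g27090 at 292 CPM. At 24 h, Glu replicate 4 was the lowest in Cz04g05080 at 316 CPM, Glu replicate 3 the highest in Cz01g09160 at 597 CPM, and AZD replicate 2 the highest in Cz13g05140 at 0.798 CPM, where the other AZD libraries held at most 0.236 CPM.

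The difference between GA and Glu itself differed between the times by an edgeR contrast, more positive at 24 h in 66 members and more negative in 3. The title prefix changed with the time.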

How the results depend on the processing

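The 24 h rises in AZD against S (75 to 77 members leaving out single libraries) and in GA against Glu (71) stayed within 1 member of the reported 76 and 72. The balance of rises and falls at 1 h depended on the scaling, in the members and in all genes tested. With library totals alone, which moved the median of all genes by more than 0.1 (from 0.10 to -0.40 for GA against Glu at 1 h), 75 and 71 members rose in these contrasts, while 6 rose and 45 fell in GA against Glu at 1 h, 4 fell in it at 24 h, 12 rose and 39 fell in AZD against S at 1 h, and 2 were called for the difference between GA minus AZD and Glu minus None at 1 h. With no filter 15 fell in AZD against S at 1 h. Fits of the compared groups alone gave 15 risen in GA against Glu at 1 h, 4 fallen in it at 24 h and 0 called in S against None at 24 h. DESeq2 called 1 and 4 in S against None at 1 h and 24 h, and 2 for the difference at 1 h. With Glu replicate 4 and S replicate 1, both at 1 h, left out, 41 rose and 4 fell in GA against Glu at 1 h, and 4 were called in S against None at each time. For the difference at 1 h 2 were called, with GA minus AZD the larger, and 0 with it the smaller. The rule kept 22 genes with no median subtracted, and 72 (without Glu replicate 4 at 1 h) to 92 (without S replicate 1 at 1 h) leaving out single libraries.

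Leaving out single libraries gave 14 to 39 risen and 4 to 14 fallen in GA against Glu at 1 h, 6 to 14 fallen and 17 to 23 risen in AZD against S at 1 h, 0 to 4 called for the difference at 1 h, 7 to 13 risen and 22 to 32 fallen for it at 24 h, 63 to 67 risen for GA minus Glu between the times, 72 to 76 risen in AZD against None, and 0 to 3 and 1 to 5 called in S against None at 1 h and 24 h. The deviations of same-numbered libraries had a median r of -0.03 at 1 h (-0.36 to 0.42) and -0.06 at 24 h (-0.34 to 0.31) over 36 pairs each, not every pair above 0.1, so the numbers were not taken to pair samples. With a replicate block 1 member was called in S against None at 24 h and 0 for the difference at 1 h, and Cz04g29220 was not called (edgeR, adjusted p = 0.0532). Low counts limit Cz13g05140 at 24 h.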

Other observations

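Genes that met only part of the rule are given as values, with no test between sets. The 15 genes past the AZD limit on the upper side at 1 h all rose in AZD against S and in GA against Glu at 24 h, with median log2 fold changes of 3.01 and 2.10. Of the 10 past it on the lower side, 7 rose and 2 fell in AZD against S at 24 h, and 2 rose and 5 fell in GA against Glu. A further 161 genes reached the limit in Glu over None at both times and not in GA over AZD at both. Of these 123 rose and 15 fell in AZD against S at 24 h, with a median log2 fold change of 1.51, and 91 rose and 44 fell in GA against Glu, with a median of 0.60.

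In None, 78 of the 81 genes had a lower mean CPM at 24 h than at 1 h, as had 49.4% of all genes tested. The None libraries were lower terms of the rule at both times, so this count is a description and nothing is read from it. Time and title prefix changed together, so these cannot be told apart.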
